A study of Mus musculus with 12 samples.

Results

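The urea cycle and periportal amino acid genes were followed in brain and liver of mice during the hours after death. The group was named by 10 genes, Cps1, Otc, Ass1, Asl, Arg1, Nags, Slc25a15, Slc25a13, Hal and Sds, and its members were taken as every probe set listed for these genes alone. This gave 12 probe sets for 9 genes, of 28898 probe sets with 1 gene and 17097 genes in all, and Sds, which encodes serine dehydratase, was not analysed here. Otc, Ass1 and Slc25a15 had 2 probe sets each, and a gene is described by the probe set with the higher mean unless the second is named. All 9 genes were at or above the array median in all 6 liver arrays, which was enough to carry each of them past the filter on low values (at least 3 arrays).

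Tissue came from male BALB/c mice aged 10 weeks, excised immediately after death (0 h), 3 h later with the body kept at room temperature, or 18 h later with the body kept at 4 °C. Brain and liver were each preserved as fresh-frozen tissue (FF, placed in RNAlater and cryopreserved) or as formalin-fixed, paraffin-embedded tissue (FFPE, 24 h in 10% formalin, blocks kept 7 d at room temperature, 10 µm sections). Each of the 12 conditions had 1 array, and the labels give neither the number of animals nor whether arrays share one. Time changed together with storage temperature, and preservation together with the RNA and labelling kits, so neither pair can be told apart. The labels name no transgene, allele or agent for any group.

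The urea cycle turns ammonia, released when amino acids are broken down, into urea for excretion, and it runs mainly in hepatocytes around the portal vein. Its first steps lie in mitochondria, where Nags makes the cofactor that Cps1 needs, Cps1 makes carbamoyl phosphate and Otc joins it to ornithine. The later steps lie in the cytosol, where Ass1 and Asl build and split argininosuccinate and Arg1 releases urea. Slc25a15 carries ornithine and citrulline across the inner mitochondrial membrane, Slc25a13 (citrin) exports the aspartate that Ass1 uses, and Hal removes ammonia from histidine. In bulk tissue, fewer cells of a type and less RNA per cell cannot be told apart.

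The deposited values are log2 intensities, and every difference below is on that scale, so 1 unit is a 2-fold difference. The median log2 value of an FF array lay between 4.65 and 4.68, and that of an FFPE array between 4.80 and 4.88. All 13 measured hepatocyte markers were at or above the array median in all 6 liver arrays, and all 10 neuron markers in all 6 brain arrays. The FF brain 0 h array stood apart, with Alb (albumin) at 8.74 against 6.11 and 5.53 in the later FF brain arrays, and 11 of 13 hepatocyte markers at or above its median against 6 in each of the others. Among the array's control probe sets for Gapdh, the 3' one exceeded the 5' one in FF liver by 0.03 at 0 h, 0.82 at 3 h and 1.14 at 18 h. The FFPE liver excess was 1.04, 1.63 and 1.77. For Actb the excess was 1.09, 2.0 and 1.90 in FF liver and -0.12, -0.01 and -0.18 in FFPE liver.

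Stretches upstream of the gene starts are shown for Slc25a13, the only member to pass at 18 h in liver by its higher probe set. They are also shown for Otc, Hal and Ass1, none of which passed there by that probe set. Each is the 250 bases before the start in RefSeq (build GRCm38.p6), read in the direction of the gene. Capitals mark the letters CCAAT, those of GGGCGG and those of TATAAA, each searched on both strands. Such windows were held for 6 of the 10 genes named, which included Nags and Slc25a15. Their stretches are not shown, although the second Slc25a15 probe set was also lower at 18 h in liver.
Slc25a13, chr6:6217174-6217423, minus strand: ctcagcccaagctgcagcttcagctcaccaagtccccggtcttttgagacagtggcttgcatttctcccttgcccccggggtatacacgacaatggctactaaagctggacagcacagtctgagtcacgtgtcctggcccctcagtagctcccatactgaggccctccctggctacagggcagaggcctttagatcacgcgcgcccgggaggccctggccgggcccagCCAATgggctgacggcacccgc
Otc, chrX:10252055-10252304, plus strand: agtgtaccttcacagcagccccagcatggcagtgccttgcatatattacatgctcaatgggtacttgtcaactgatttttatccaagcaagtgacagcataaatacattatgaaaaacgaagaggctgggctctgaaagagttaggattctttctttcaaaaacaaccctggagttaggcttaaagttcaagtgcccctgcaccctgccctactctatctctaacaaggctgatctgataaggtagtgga
Hal, chr10:93488518-93488767, plus strand: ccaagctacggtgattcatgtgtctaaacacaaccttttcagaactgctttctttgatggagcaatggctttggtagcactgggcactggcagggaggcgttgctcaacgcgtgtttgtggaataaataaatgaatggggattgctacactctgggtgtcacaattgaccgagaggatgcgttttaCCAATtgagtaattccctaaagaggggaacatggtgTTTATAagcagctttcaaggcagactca
Ass1, chr2:31470020-31470269, plus strand: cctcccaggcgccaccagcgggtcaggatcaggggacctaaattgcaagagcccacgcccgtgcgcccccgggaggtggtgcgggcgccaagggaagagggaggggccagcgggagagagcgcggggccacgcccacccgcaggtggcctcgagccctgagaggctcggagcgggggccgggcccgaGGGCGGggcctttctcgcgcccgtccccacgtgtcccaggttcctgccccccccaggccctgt
The Slc25a13 stretch held CCAAT 22 to 18 bases before the start, 62.8% G or C and 11 CpG pairs. The Ass1 stretch held GGGCGG 63 to 58 bases before the start, 75.6% G or C and 23 CpG pairs. The Hal stretch held CCAAT 64 to 60 bases before the start and TATAAA on the opposite strand at 28 to 23, with 45.6% G or C. In the Otc stretch none of these letters occurred, and it had 43.6% G or C and 1 CpG pair. Over 32851 windows of the same length, CCAAT was found in 33.8%, GGGCGG in 32.7% and TATAAA in 12.4%, and the medians were 52.4% G or C and 6 CpG pairs. No motif overlapped another in these 4 stretches.

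How the group differed between the tissues was described first. All 9 genes were higher in liver than in brain in FF and in FFPE, by 1.45 to 7.61. For each of them the lowest liver array lay above the highest brain array. The separation was widest for Arg1 (6.17) and narrowest for Nags (1.20). In limma, 9 of 9 members passed as higher in liver in FF, where 36.5% of the genes tested did, and 9 of 9 in FFPE, where 34.5% did. Otc, Arg1 and Hal reached the median in fewer than 3 brain arrays and so passed the filter through liver, while the other 6 also reached it in 3 to 6 brain arrays, and the counts are a description.

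Among the mitochondrial enzymes, Cps1 read 12.22, 12.36 and 12.09 at 0, 3 and 18 h in FF liver and 12.09, 12.06 and 11.70 in FFPE liver. In brain it read 6.02, 4.54 and 4.88 in FF and 5.01, 5.01 and 4.97 in FFPE. Liver was far above brain in every pair, and the FF brain 0 h array was the highest brain array. The tissue difference of Cps1 was 7.08 ± 0.21 (SE; 3 arrays against 3) in FF, adjusted p = 2.76e-12, and 7.51 without the FF brain 0 h array.

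Otc read 11.04, 10.98 and 11.04 in FF liver and 11.18, 11.26 and 11.25 in FFPE liver, the most even levels over time in FF liver among the members. In brain it read 3.90, 3.50 and 3.53 in FF and 4.31, 4.07 and 4.93 in FFPE. The tissues did not overlap, and the difference was 7.38 in FF and 6.79 in FFPE. Nags read 7.85, 8.25 and 7.74 in FF liver and 7.19, 7.06 and 6.88 in FFPE liver. In brain it read 4.37, 4.40 and 4.65 in FF and 5.68, 5.41 and 5.68 in FFPE. The FFPE arrays thus lay below the FF arrays in liver and above them in brain, and the tissue difference was 3.47 in FF and 1.45 in FFPE.

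Among the cytosolic enzymes, Ass1 read 10.49, 10.30 and 10.21 in FF liver and 10.96, 10.77 and 10.89 in FFPE liver. In brain it read 5.68, 5.65 and 5.63 in FF and 4.87, 4.97 and 5.38 in FFPE. FFPE arrays were above FF arrays at every time in liver and below them at every time in brain, and the tissue difference was 4.68 in FF and 5.80 in FFPE. Asl read 10.04, 10.29 and 10.23 in FF liver and 10.56, 10.64 and 10.43 in FFPE liver, against 5.23 to 5.41 over the 6 brain arrays. Arg1 read 11.30, 11.12 and 11.15 in FF liver and 11.16, 11.18 and 11.17 in FFPE liver. In brain it read 3.91, 3.41 and 3.42 in FF and 4.95, 4.62 and 4.56 in FFPE. Arg1 varied least over the 6 liver arrays (a range of 0.18), and its tissue difference in FF, 7.61, ranked 19th from the highest of the 13073 genes tested.

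The carriers and Hal had lower differences between tissues in FF than Arg1, Otc and Cps1. Slc25a15 read 10.46, 10.67 and 10.41 in FF liver and 10.33, 10.33 and 10.02 in FFPE liver, against 5.76 to 6.39 in brain. Slc25a13 read 9.44, 9.27 and 8.63 in FF liver and 8.78, 8.77 and 7.84 in FFPE liver. In brain it read 5.13, 5.07 and 5.19 in FF and 4.98, 4.56 and 4.93 in FFPE. In both liver series the 18 h array was the lowest, which was not so in brain. Hal read 9.60, 9.60 and 9.93 in FF liver and 9.26, 9.01 and 9.33 in FFPE liver, against 3.36 to 3.97 in brain, where it was below the array median in every array. The tissue differences in FF were 4.16, 3.98 and 6.12 for Slc25a15, Slc25a13 and Hal.

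**Figure D1:**
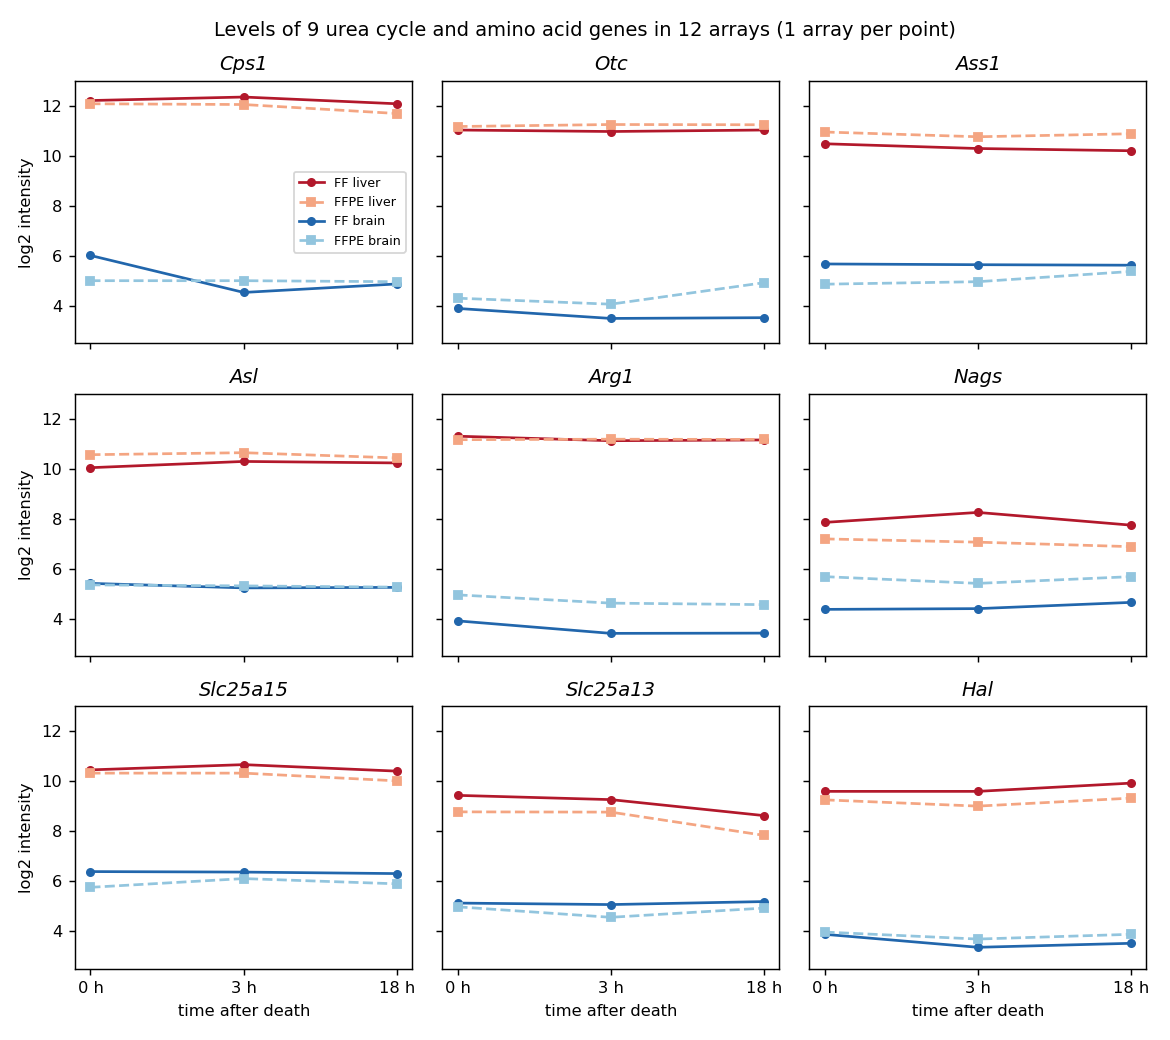
Level of each of the 9 genes (log2 intensity, y axis) at 0, 3 and 18 h after death (x axis), 1 array per point, with FF and FFPE series of liver and brain. Liver points lie above brain points for every gene, and the liver series of Slc25a13 end lower at 18 h, at 8.63 in FF and 7.84 in FFPE.

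**Figure D2:**
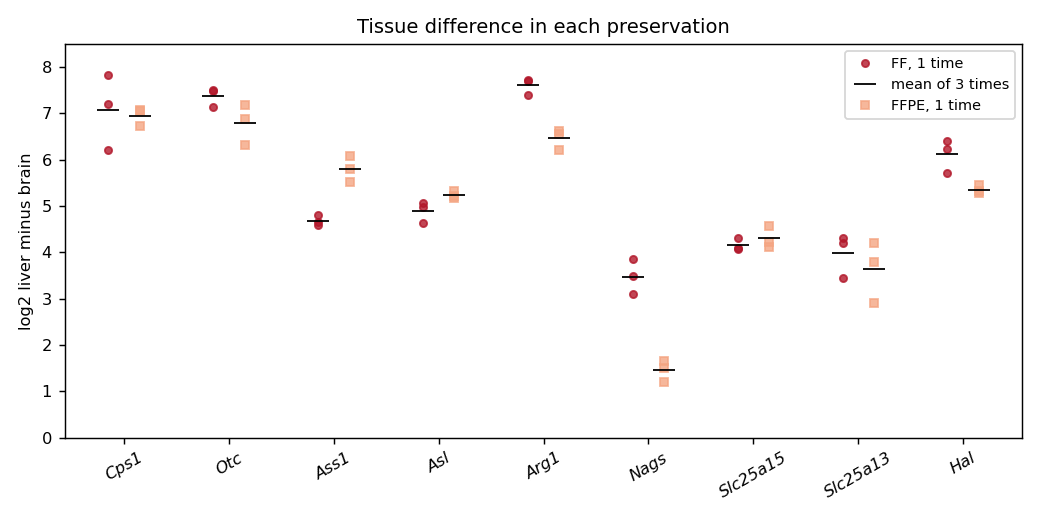
Liver minus brain (log2, y axis) for each gene (x axis), with 1 point for each time in FF (circles) and FFPE (squares) and a bar at the mean of the 3 times. The means for Nags are 3.47 in FF and 1.45 in FFPE, and those for Ass1 are 4.68 and 5.80.

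Whether levels in liver changed with time was tested on what the FF and FFPE arrays shared, with 2 arrays at each time. At 3 h none of the 9 members passed in limma, where 0.245% of genes did. None had an unadjusted p under 0.05, where 1206 of the 13073 genes did. Their differences from 0 h ran from -0.19 (Ass1) to 0.16 (Asl), with adjusted p from 0.803 to 0.991. The 95% intervals were widest for Cps1, from -0.50 to 0.61. Kupffer cell markers fell in the same arrays, with 7 of 11 tested past the threshold and a median difference of -1.05, and their summed linear level went from 2456 to 1101 in FF liver and from 1423 to 625.5 in FFPE liver. Of the erythroid markers, Hba-a1 and Hbb-b2 rose, 2 of 3 tested, and both calls were lost without the FFPE liver 3 h array (1.17 and 1.31). Sinusoidal endothelial markers had a median difference of -0.61 with none of 9 past the threshold. Hepatocyte markers had a median difference of 0.01 with none of 13 past the threshold, and the part of these other cell types in the members' values was not tested.

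At 18 h, 1 of the 9 members passed, Slc25a13, where 14.5% of genes did (10.9% lower and 3.61% higher). It fell by 0.81 in FF and by 0.94 in FFPE. Its fitted difference from 0 h was -0.88 ± 0.15 (SE; 2 arrays against 2), 1.83-fold lower with a 95% interval from -1.19 to -0.56 and adjusted p = 0.00209. Against 3 h it was -0.78 ± 0.15, adjusted p = 0.00641, and again the only member of 9 to pass, where 10.3% of genes did. Without the FFPE liver 3 h array that second difference was -0.67 with adjusted p = 0.105. The decrease from 0 h passed under every alternative setting run for it, with values from -0.98 to -0.77 when single arrays were left out.

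The other 8 members did not pass at 18 h, with adjusted p from 0.418 to 0.942. The differences were -0.26 for Cps1 (95% interval -0.82 to 0.30), 0.03 for Otc (-0.40 to 0.47) and -0.21 for Nags (-0.55 to 0.13). For the cytosolic enzymes they were -0.18 for Ass1 (-0.52 to 0.17), 0.03 for Asl (-0.27 to 0.33) and -0.07 for Arg1 (-0.36 to 0.22). For Slc25a15 the difference was -0.18 (-0.50 to 0.14) and for Hal 0.20 (-0.11 to 0.51). Each of these intervals, all of the higher probe set, excludes a 2-fold change in either direction. They do not show that levels were the same. The members' median was -0.18 and that of all genes -0.02. By its higher probe set, no member differed 2-fold or more from 0 h in any liver pair of arrays. At 18 h, 519 genes did so in FF and 618 in FFPE. The second probe sets of Ass1 (1.01 in FF and 1.31 in FFPE) and Slc25a15 (-1.12 in FF) also did so at 18 h.

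Values of other cell types and of RNA quality in the 18 h liver arrays stand beside the fall of Slc25a13. None of 13 hepatocyte markers passed, their median difference was -0.04, and their summed linear level went from 6.832e+04 to 6.928e+04 in FF and from 6.805e+04 to 6.443e+04 in FFPE. Stellate and matrix markers rose, 6 of 8 tested, with Col3a1 1.25 and Reln 1.10 higher, and their summed level went from 1735 to 3306 in FF and from 885.8 to 1389 in FFPE. Sinusoidal endothelial markers rose in 4 of 9 tested (Bmp2 by 0.84), and their summed level went from 1966 to 2935 in FF and from 1225 to 1401 in FFPE. Kupffer cell markers fell in 3 of 11 (Vsig4 by 0.88), and their summed level went from 2456 to 2139 in FF and from 1423 to 931.3 in FFPE. The Bmp2 call was lost without the FF liver 0 h (0.77) or 18 h (0.55) array, and the Vsig4 call without the FFPE liver 0 h (-0.41) or 18 h (-0.56) array. Erythroid markers rose in 2 of 3 tested, Hbb-b2 by 1.12 and Hba-a1 by 1.10, and their summed level went from 4767 to 9169 in FF and from 3233 to 6151 in FFPE. The Hba-a1 call was lost without the FFPE liver 0 h array (0.84). The Gapdh control gap was larger at 18 h than at 0 h in both preservations, and the Actb gap in FF only. The part of these in the fall of Slc25a13 was not tested.

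**Figure D3:**
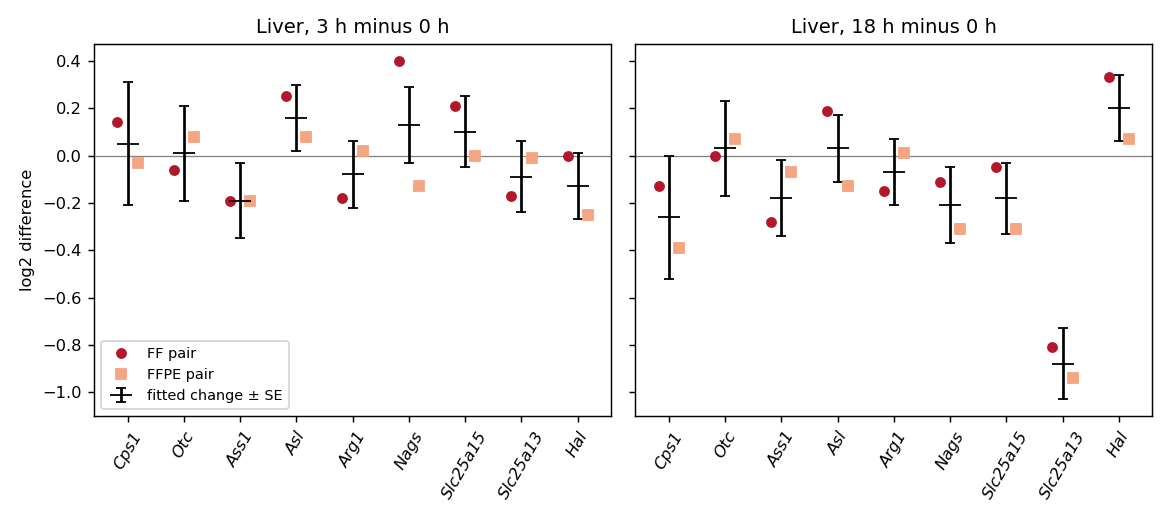
Difference from 0 h in liver (log2, y axis) for each gene (x axis) at 3 h and 18 h, with the FF pair (circles), the FFPE pair (squares) and the fitted difference with its SE (bars). At 18 h Slc25a13 lies at -0.81 and -0.94, and the fitted differences of the other 8 genes lie between -0.26 and 0.20.

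The difference between tissues in the change at 18 h was tested as well. For Slc25a13 the liver change minus the brain change was -0.88 ± 0.21 (SE, adjusted p = 0.0313), and it was the only member of 9 to pass by its higher probe set, where 4.48% of genes did. The brain change of Slc25a13 itself was 0.00 (95% interval -0.31 to 0.32). The tissue difference was lost when any 1 of 7 arrays was left out (the FF and FFPE arrays of both tissues at 0 h and 18 h except FF liver 18 h), with adjusted p up to 0.186. With quantile normalization it was -0.64, adjusted p = 0.129. In a fit of every probe set, the second Slc25a15 probe set also passed at 18 h, at -1.0 ± 0.21 (SE, adjusted p = 0.0203). At 3 h none of the 9 passed, where 0.0153% of genes did. Cps1 alone had an unadjusted p under 0.05, where 982 of the 13073 genes did.

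The second probe sets of 3 genes did not all follow the first. For Ass1 the second probe set read 6.65, 6.62 and 7.66 in FF liver and 6.34, 6.21 and 7.65 in FFPE liver. The 18 h array was thus the highest in both preservations, while the higher probe set differed from 0 h by -0.18 ± 0.16 (SE), which did not pass. In a fit of every probe set, the second Ass1 probe set rose by 1.16 ± 0.17 (SE) at 18 h, adjusted p = 0.000997, where 14.2% of probe sets passed. For Slc25a15 the second probe set read 7.18, 7.11 and 6.06 in FF liver and 8.32, 7.99 and 7.37 in FFPE liver, lowest at 18 h in both. It fell by 1.03 ± 0.15, adjusted p = 0.000841, against -0.18 for the higher probe set. For Otc the second probe set read 5.96, 6.14 and 6.15 in FF liver and 4.60, 4.65 and 4.94 in FFPE liver, a difference at 18 h of 0.26 ± 0.14 that did not pass (adjusted p = 0.255).

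The changes of the second Ass1 and Slc25a15 probe sets at 18 h in liver passed with any 1 array left out, at 0.99 to 1.34 and at -1.18 to -0.89. With the mean of a gene's probe sets in place of the higher one, 3 members passed at 18 h in liver: Slc25a13, Ass1, which then rose by 0.49 (adjusted p = 0.0383), and Slc25a15, which fell by 0.61 (adjusted p = 0.00788). The direction given for Ass1 therefore rests on which probe set is read. The positions of these probe sets within their transcripts were not analysed here.

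**Figure D4:**
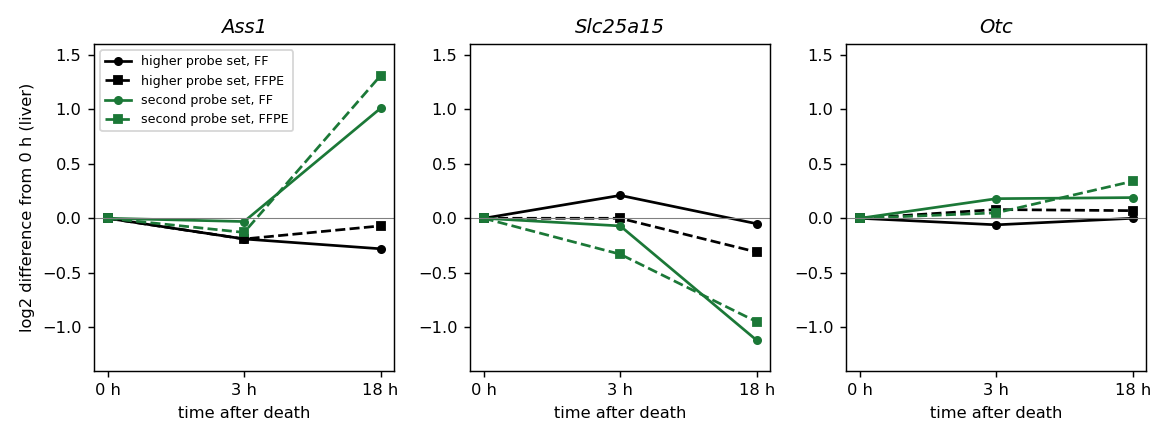
Difference from 0 h in liver (log2, y axis) against time after death (x axis) for both probe sets of Ass1, Slc25a15 and Otc, with 1 line per probe set and preservation. The second probe sets end at 1.01 and 1.31 for Ass1 and at -1.12 and -0.95 for Slc25a15 in FF and FFPE.

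Genes around the cycle were read in the same arrays at 18 h in liver, in lists that leave the 9 members out. Of all genes tested, 10.9% fell and 3.61% rose. Of the other urea cycle and nitrogen genes, 2 of 17 tested fell and none rose, with a median of -0.29. Oat (ornithine aminotransferase, which also stands in the pericentral list) was -0.87 ± 0.14, adjusted p = 0.00182. Slc25a12, the related aspartate and glutamate carrier called aralar, was -0.83 ± 0.13, adjusted p = 0.00149. Of the other amino acid catabolism genes, 8 of 39 fell and 1 rose, with a median of -0.14. Csad, which makes a taurine precursor, was at -2.02, Bckdhb, a subunit of the branched-chain keto acid dehydrogenase, at -1.88, Hibch of valine breakdown at -1.14 and Gnmt, a glycine methyltransferase, at -0.92. At 3 h Csad was the only gene of these 2 lists to pass, at -1.33 and adjusted p = 0.0146. That call was lost without the FFPE liver 0 h array (-0.92) or either liver 3 h array (-1.41 and -1.25), and the Gnmt call without either liver 0 h array (-0.78 and -1.06) or the FF liver 18 h array (-0.66).

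Periportal genes outside the group and pericentral genes were set beside each other, since hepatocytes at the 2 ends of the lobule carry different enzymes. Of the other periportal genes, 3 of 12 tested fell and 1 rose, with a median of -0.10. Ctsc (cathepsin C), Hsd17b13 (a lipid droplet protein) and Fbp1 (of gluconeogenesis) were at -0.69, -0.59 and -0.57, and Cdh1 (E-cadherin) at 0.69. This count of 3 became 1 without the FF liver 0 h array or the FFPE liver 18 h array. Ctsc kept its call under every setting run. Hsd17b13 lost it without either of those arrays (-0.49 and -0.55) and was -0.27 with the mean of its probe sets (adjusted p = 0.22). Fbp1 lost its call without any 1 of 10 arrays, all but the brain 0 h arrays, and Cdh1 without any 1 of 5, with 0.32 when the FFPE liver 0 h array was left out. Of the pericentral genes, 9 of 16 fell and none rose, with a median of -0.53. Cyp7a1, the rate-limiting enzyme of bile acid synthesis, was at -1.83, Slc1a2, a glutamate transporter, at -1.54, Gulo, of vitamin C synthesis, at -1.01 and Lect2, a secreted hepatocyte protein, at -0.96. Of these 4, Gulo lost its call without the FFPE liver 0 h array (-0.87). The members' own count was 1 of 9, near the share of all genes tested, of which 10.9% fell and 3.61% rose. No test compared the lists with each other.

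**Figure D5:**
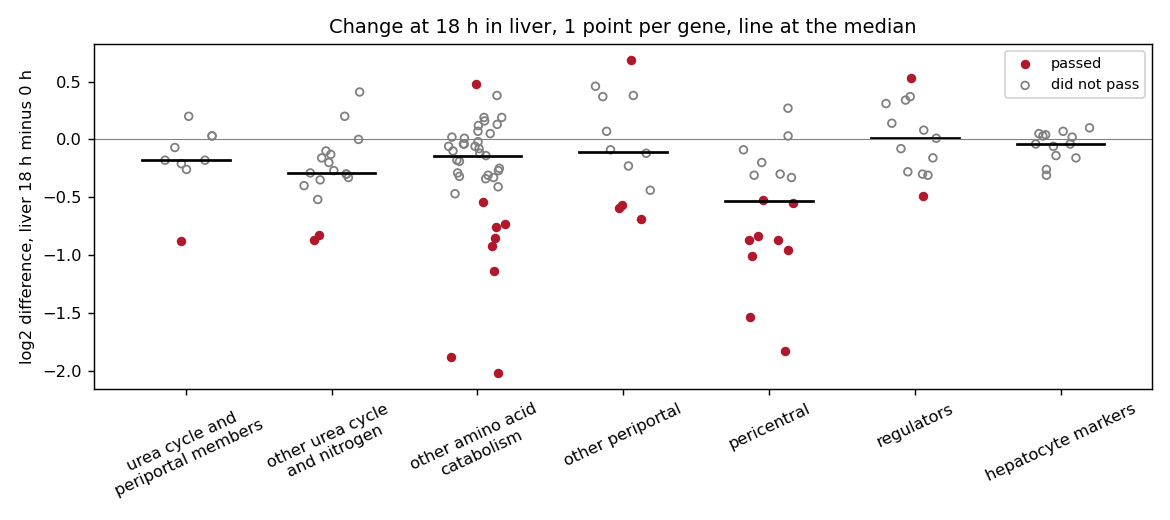
Difference at 18 h from 0 h in liver (log2, y axis), 1 point per gene, for the 9 members, 5 lists of related genes and the hepatocyte markers (x axis), with a line at each median and filled points past the threshold. The medians are -0.18 for the members, -0.53 for the pericentral list and -0.04 for the hepatocyte markers.

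Levels of relatives of the members were read as well. Slc25a12 read 8.44, 8.61 and 8.52 in FF brain and 6.61, 5.98 and 5.83 in FF liver. In FFPE it read 7.10, 7.19 and 7.15 in brain and 6.44, 5.76 and 5.56 in liver. It was thus higher in brain in every pair, the reverse of Slc25a13, with a liver minus brain difference of -2.38 in FF and -1.23 in FFPE. The 18 h liver array was lower than the 0 h array in both preservations for both carriers. At 3 h Slc25a12 was -0.66 (adjusted p = 0.0678), whereas Slc25a13 was -0.09 (adjusted p = 0.936). Arg2, the mitochondrial arginase, was lower in liver than in brain, at -0.71 in FF and -0.87 in FFPE, and its difference at 18 h in liver was -0.30 (adjusted p = 0.172). Cad, which makes carbamoyl phosphate for pyrimidines in the cytosol, differed by 0.37 at 18 h in liver (adjusted p = 0.115).

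The genes nearest to Slc25a13 were sought over the 4 liver differences from 0 h (FF and FFPE, 3 h and 18 h), by the root mean square of the gaps in log2. Slc25a13 itself had -0.17 and -0.81 in FF and -0.01 and -0.94 in FFPE. Pnpla8, a phospholipase, was at a distance of 0.0324, Mrpl35, a mitochondrial ribosomal protein gene, at 0.0472 and E2f6, a transcription factor gene, at 0.0559. These distances come from single arrays and are a description.

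Most members differed between preservations, as most genes did, so their counts show nothing particular to them. In liver, 6 of 9 differed between FFPE and FF, where 71.2% of genes did. Ass1 was higher in FFPE by 0.54 (adjusted p = 0.00229) and Asl by 0.36. Lower in FFPE were Nags at -0.90 (1.87-fold, adjusted p = 4.02e-05), Slc25a13 at -0.65, Hal at -0.51 and Slc25a15 at -0.29. Asl lost its call when the arrays were centred on their medians (0.20) or without the FF or the FFPE liver 0 h array, and Slc25a15 (adjusted p = 0.046) lost it when any 1 of 10 arrays was left out, all but those 2. With quantile normalization Slc25a13 (-0.27) and Hal (-0.25) did not pass, nor did Ass1 with the mean of its probe sets (0.15), and 3 of 9 members passed with quantile normalization. The second Slc25a15 probe set went the other way, 1.11 higher in FFPE (adjusted p = 4.04e-06), and the mean of both was 0.41 higher (adjusted p = 0.00292). The differences of Cps1 (-0.27), Otc (0.21) and Arg1 (-0.02) did not pass, but the second Otc probe set was -1.35 (adjusted p = 4.1e-07) and the mean of both -0.57. The second Ass1 probe set was at -0.24 (adjusted p = 0.138). The directions for Slc25a15, Otc and Ass1 therefore rest on which probe set is read.

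In brain, 6 of 9 differed, where 81.8% of genes did, in other directions for some genes. Arg1 was higher in FFPE by 1.13 and lay above FF at all 3 times, Nags by 1.12 and Otc by 0.79, while Ass1 was at -0.58, Slc25a15 at -0.43 and Slc25a13 at -0.31. Arg1 and Otc reached the array median in 1 brain array each, so their differences lie between readings mostly below it. The second Otc probe set was at -0.17 (adjusted p = 0.177) and the mean of both at 0.31 (adjusted p = 0.0198). The Slc25a13 call was lost without any 1 of the 4 later brain arrays, and the Slc25a15 call without either brain 0 h array. With the mean of probe sets Ass1 (-0.19) and Slc25a15 (-0.15) did not pass, and with quantile normalization Slc25a15 was 0.06 (adjusted p = 0.672), so its direction turned. The preservation difference itself differed between liver and brain for 5 of 9 members, where 54.9% of genes did. Liver minus brain it was -2.02 for Nags (adjusted p = 1.95e-06), -1.15 for Arg1, -0.77 for Hal, -0.58 for Otc (adjusted p = 0.0482) and 1.12 for Ass1. The brain readings behind the values of Arg1 and Otc were mostly below the array median, and those of Hal all were. With quantile normalization Hal (-0.30) did not pass, nor did Ass1 with the mean of its probe sets (0.34). The second Ass1 probe set went the other way, at -0.44 (adjusted p = 0.0804), and in brain alone at 0.19 (adjusted p = 0.217). The Otc call held in neither scaling alternative and was lost without 10 of the 12 arrays in turn, all but the brain 0 h arrays. By the second probe set Otc was at -1.18 (adjusted p = 6.46e-05) and Slc25a15 at 0.98 (adjusted p = 0.00045). Both second probe sets were below the array median in every brain array. With the mean of their probe sets Otc and Slc25a15 passed, while Slc25a15 did not by its higher probe set (0.15).

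In brain none of the 9 members passed with time, at 3 h (0.0765% of genes did) or at 18 h (0.0306%). At an unadjusted p under 0.05 there were 3 members at 3 h and 2 at 18 h, against 684 and 494 of the 13073 genes tested. Arg1 was among them at both times and was lower in both preservations, at -0.50 in FF and -0.33 in FFPE at 3 h. Its differences at 18 h were -0.49 and -0.39. Hal, at 3 h only, was at -0.52 in FF and -0.28 in FFPE. Arg1 reached the array median in 1 brain array and Hal in none. Cps1 had the largest differences, -0.74 ± 0.26 at 3 h (adjusted p = 0.787) and -0.59 ± 0.26 at 18 h (adjusted p = 0.995). These Cps1 differences came from FF, with -1.48 and -1.14, whereas the FFPE differences were 0.00 and -0.04. Without the FFPE brain 0 h array they were -1.38 (adjusted p = 0.0175) and -1.24 (adjusted p = 0.043). Without the FF brain 0 h array they were -0.10 (adjusted p = 0.999) and 0.06 (adjusted p = 1.0). The FF brain 0 h array behind these values is the one with the high hepatocyte markers: Alb was 8.74, 6.11 and 5.53 over the FF brain times and Cyp3a11 7.74, 4.60 and 4.11. Averaged over the 13 measured, hepatocyte markers stood at 6.66, 5.26 and 5.12 in FF brain, against 5.23, 5.30 and 5.27 in FFPE brain, and their part in the Cps1 values was not tested. Their summed linear level ran the other way, 2274, 7080 and 5038 in FF brain. Ttr, also made by the choroid plexus, is 1 of the 13 and enters both the mean and the sum. It was 4.04 higher at 3 h and 3.53 higher at 18 h than at 0 h in FF, and 6.75 and 6.26 higher in FFPE. The median fitted difference of the 13 was -0.94 at both later times. At each, Ttr passed as higher and Apoa1 as lower (-1.38 and -1.20 in FFPE), so the even FFPE means do not show even levels.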

How the data were processed

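Total RNA of 12 tissue samples was hybridised to MG-430 PM arrays, 1 array per condition. The authors deposited log2 values from RMA, run in Affymetrix Expression Console according to the submitters' processing notes, which name no versions and leave unsaid whether 1 run covered all arrays. From these, the probe set with the highest mean was taken for each of 17097 genes, and the 13073 genes that reached the array median on 3 arrays or more were tested. Of 45141 probe sets, 104 were controls, 551 were listed with several genes and 15588 with none.

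limma 3.58.1 in R 4.3.3 was fitted to all 12 arrays with 8 coefficients (4 tissue and preservation means, and the changes at 3 h and 18 h in each tissue) and 4 residual degrees of freedom. P-values were two-sided and adjusted by the Benjamini-Hochberg method over the 13073 genes, with 0.05 as the threshold. The model was run on data simulated from its own fitted means and spread, with arrays drawn independently. Such data cannot show how it performs where arrays depend on each other. The p-values reflect how arrays vary, not animals, and precision is limited by how few arrays there are.

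The members, gene lists and tests were chosen with earlier results of these data known. The text names all members, up to 4 genes of a list past the threshold (or up to 3 by value), 4 relatives (Arg2, Slc25a12, Cad and, below the filter, Slc25a2) and the 3 genes nearest to Slc25a13. Genes named beyond this, such as Alb and Cyp3a11, were chosen after their values were seen. Alternatives were no filter, other handling of probe sets, quantile normalization, median centring, a robust spread, 1 tissue at a time, and each array left out.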

Additional observations from a re-analysis of the deposited data

Results flagged for a closer look

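The change of Slc25a13 at 18 h differed between the tissues by test, with liver minus brain at -0.88. The FFPE minus FF difference also differed between liver and brain by test for 5 of 9 genes, close to the 54.9% of all genes for which it did. It was lower in liver for Nags (-2.02), Arg1 (-1.15), Hal (-0.77) and Otc (-0.58, a call lost in 13 of 18 settings). For Ass1 it was higher in liver (1.12), but -0.44 by the second probe set, which did not pass. The second Otc probe set was at -1.18 (adjusted p = 6.46e-05). Arg1 and Otc reached the array median in 1 brain array each by the higher probe set, and Hal and the second Otc probe set in none.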

How the results depend on the processing

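With each condition on 1 array, the spread of a condition was not measured, and each time effect rests on the 2 preservations of a tissue. No paired analysis was possible because the labels give no replicate number by which to pair samples; times were compared within each preservation through the fit's own terms. Single arrays were left out in fits where the spread is pooled over conditions. The settings for the list counts and the second probe sets were chosen after seeing the data.

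With the mean of a gene's probe sets, 3 members passed in liver at 18 h against 0 h and 3 at 18 h against 3 h. The difference then reversed for Ass1 at 18 h (0.49), for Slc25a15 at 3 h (-0.05) and, between FFPE and FF liver, for Otc (-0.57) and Slc25a15 (0.41). With quantile normalization, 3 members passed between FFPE and FF liver, 0 passed for the tissue difference at 18 h, and Slc25a15 between FFPE and FF brain was 0.06. With centred arrays, Asl at 18 h in liver was -0.01. The cause of these moves was not tested, apart from the second probe sets described above.

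With single arrays left out, the number of members that passed was 0 to 1 in liver at 18 h against 3 h, in brain at 3 h and at 18 h, and for the tissue difference at 18 h. Differences of uncalled members crossed 0 in liver at 3 h for Cps1 (-0.05 to 0.16), Otc (-0.04 to 0.06), Arg1 (-0.17 to 0.01), Nags (-0.08 to 0.35), Slc25a15 (-0.01 to 0.22), Slc25a13 (-0.20 to 0.02) and Hal (-0.25 to 0.00). At 18 h this held for Otc (-0.02 to 0.09), Asl (-0.09 to 0.15) and Arg1 (-0.16 to 0.02), and between FFPE and FF liver for Arg1 (-0.06 to 0.04). The number of lower genes became 5 in the catabolism list without the FFPE liver 0 h array and 4 in the nitrogen list without the FF liver 18 h array, and it was 6 to 9 in the pericentral list. Of 1394 values for single members, second probe sets and list counts under other settings, 1286 were counted as the same. Members and called second probe sets had to keep direction and call, and counts to stay within 1.5 times. Uncalled second probe sets had only to stay uncalled, and that of Ass1 at 3 h in liver crossed 0 (-0.21 to 0.05). Some of the 1394 values were bound to agree. Leaving out a brain array leaves the fitted size of a liver change as it is, and the mean of probe sets changes nothing for a gene with 1 probe set. The count is therefore no measure of how robust the results are.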

Other observations

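Regulators of urea cycle and periportal genes were read over the same liver arrays. At 3 h, 1 of 13 tested fell and none rose: Onecut1, a liver transcription factor gene, was -1.01 in FF and -1.18 in FFPE (fitted -1.10 ± 0.18, SE, adjusted p = 0.0292). From 3 h to 18 h it rose by 1.44 (adjusted p = 0.000977), by 1.74 in FF and by 1.13 in FFPE. The Onecut1 call at 3 h was lost without the filter on low values, with quantile normalization, with liver arrays alone, and without any 1 of 9 arrays (all but the 0 h and 18 h FF liver arrays and the 18 h FFPE liver array). At 18 h Hnf4a, a hepatocyte nuclear receptor gene, was 0.53 higher than at 0 h (adjusted p = 0.0394) and Foxa2, a forkhead factor gene, was -0.49 (adjusted p = 0.0413). The Foxa2 call was lost with liver arrays alone and without any 1 of 9 arrays, all but the brain 0 h arrays and the 18 h FF liver array. The Hnf4a call was lost with the mean of its probe sets (0.10), with centred arrays, with liver arrays alone and without any 1 of 10 arrays, all but the 0 h and 18 h FFPE liver arrays, with 0.29 when the 18 h FF liver array was left out. The other 11 regulators tested did not pass at 18 h, and the list's median was 0.01. Odc1, which turns ornithine into putrescine, was -0.96 ± 0.19 from 3 h to 18 h in liver (adjusted p = 0.00859; the FF pair gave -0.62 and the FFPE pair -1.30), and its call was lost without the FFPE liver 3 h (-0.78) or 18 h (-0.62) array.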
